A study of Mus musculus with 2 samples.

Results

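Genes of the NF-kappaB system were compared in sorted cells of mouse dorsal skin, between those bright for a green fluorescent reporter knocked into Lgr5 (Lgr5-EGFP-ires-CreERT2 mice, here the Lgr5-high cells) and those bright for the same kind of reporter in Lgr6 (Lgr6-EGFP-ires-CreERT2 mice, the Lgr6-high cells). The genes were the subunits Rela, Relb, Nfkb1 and Nfkb2, the inhibitors Nfkbia and Nfkbie, the nuclear cofactors Bcl3 and Nfkbiz, and the ubiquitin regulators Tnfaip3 and Birc3. Every non-control probe carrying one of these 10 gene names was taken, which gave 15 of the array's 41174 probes, printed as 33 spots, for 10 of 27709 distinct gene labels. Lgr5 and Lgr6 are receptors for R-spondins and mark cells of different parts of the hair follicle.

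Both mouse lines carry EGFP and CreERT2 expressed from the respective Lgr promoter, so that each population is set by the activity of that promoter and by the sort gate. Cells of 3 mice were combined per sort, and 150 ng of total RNA was labelled per channel. The age, sex and hair cycle stage of the mice are not given in the sources used here. RNA of both populations was hybridised together on 2 two-colour arrays with exchanged dyes. Lgr6-high RNA carried Cy5 on array 1 and Cy3 on array 2. Whether the arrays held separate RNA pools is not stated in the sources used here, so the pair counts as 1 replicate, no test of the populations can be made, and each SD below (n = 2 arrays) covers the measurement and not the mice.

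NF-kappaB is a family of transcription factors made of pairs of Rel proteins. In resting cells IkappaB proteins hold these pairs in the cytoplasm. Signals from cytokine receptors or pattern recognition receptors activate the IkappaB kinase complex, which marks the inhibitors for destruction and frees the factor to enter the nucleus. Among its best known target genes are its own inhibitors and some of its own subunits, so that the pathway is limited by feedback, and in keratinocytes it takes part in responses to injury, microbes and cytokines.

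The NF-kappaB genes lay on the Lgr6-high side. Each value is the log2 of the Lgr6-high signal divided by the Lgr5-high signal, after background correction and loess normalisation of each array. A gene was measured if 1 of its probes was well above background for at least 1 population on both arrays, and was then represented by the brightest such probe. It was called if its mean ratio was at least 1, which is 2-fold, and both arrays gave 0.5 or more with that sign. By this rule 6 of the 9 measured members were called higher in Lgr6-high cells, namely Tnfaip3, Bcl3, Nfkbiz, Rela, Nfkb2 and Relb, and 0 in Lgr5-high cells. Across all 6195 measured genes 7.28% were called in that direction and 4.76% in the other. The members' median ratio was 1.21, and their mean ratios ran from 0.64 to 3.09, whereas the median of all measured genes was -0.05. A mean ratio above 0 was found for 9 of 9 measured members and for 46.4% of all measured genes. The members were chosen with earlier results of these data known. Each contrast with all genes in this paragraph therefore describes the list and is no test of it. Nfkbie did not pass the filter on dim probes. Birc3 and Nfkb1 passed it through the Lgr6-high channel only, since their Lgr5-high signal was well above background on array 1 and not on array 2. Among the 7 members above background in both populations on both arrays 6 were called, against 7.66% of the 4504 genes measured in this way. In these sorted bulk samples a smaller share of expressing cells and less RNA per cell cannot be told apart.

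**Figure D1:**
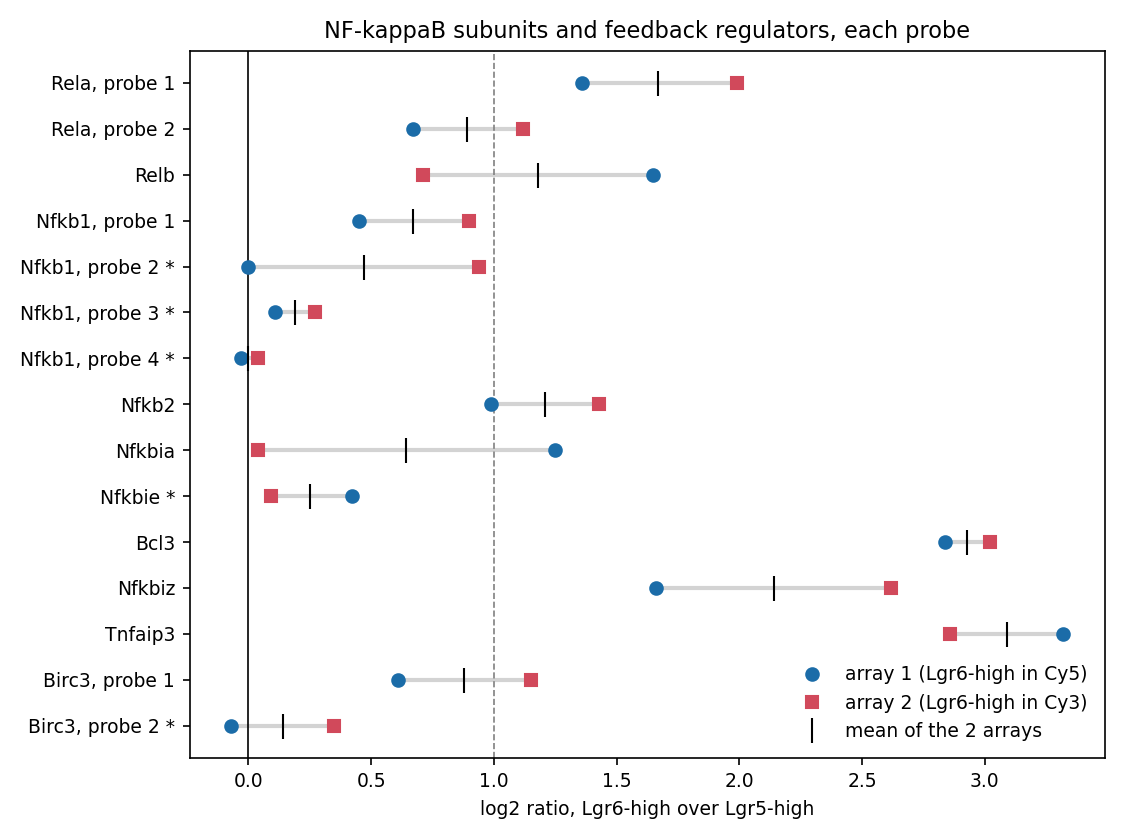
Log2 ratio of Lgr6-high over Lgr5-high cells for each of the 15 probes, with array 1 as circles, array 2 as squares and the mean of the 2 arrays as a black tick; the dashed line marks a ratio of 1 and an asterisk a probe that did not pass the filter on dim probes. Tnfaip3 and Bcl3 lie near 3 on both arrays, and Nfkbia is split between 1.25 and 0.04. A dim Nfkb1 probe is split between 0 and 0.94, and the other dim probes of Nfkb1 and Birc3 lie nearer 0.

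The promoters of the members were read for NF-kappaB sites, since several members are known targets of the factor. RefSeq promoter windows of build GRCm38.p6, each running from 250 bases before to 50 bases after a transcription start, were matched by symbol for 7 of the 10 members, the others being Relb, Nfkb1 and Nfkbiz. The kappaB consensus, searched on both strands, occurred in the windows of 5 of these 7 genes, which were Tnfaip3, Nfkbia, Nfkbie, Nfkb2 and Bcl3. It occurred in 9.55% of the 27025 genes with a window. A gene counts here if any of its windows holds a match, and Nfkb2 has several windows. The Bcl3 match began past the start, while the other 4 genes had matches before it, as did 8.23% of all genes. The stretches before the start of these 4 genes are printed 5′ to 3′ on the strand of the gene, with consensus matches in capitals, because they show how close to the start the matches lie.
Tnfaip3, GRCm38.p6 chr10:19015411-19015660, minus strand: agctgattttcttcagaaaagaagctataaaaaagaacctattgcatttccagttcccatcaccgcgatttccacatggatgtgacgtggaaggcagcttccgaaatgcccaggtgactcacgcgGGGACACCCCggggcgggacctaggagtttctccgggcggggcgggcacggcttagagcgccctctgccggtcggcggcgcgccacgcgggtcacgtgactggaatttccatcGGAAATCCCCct
Nfkb2, GRCm38.p6 chr19:46304487-46304736, plus strand: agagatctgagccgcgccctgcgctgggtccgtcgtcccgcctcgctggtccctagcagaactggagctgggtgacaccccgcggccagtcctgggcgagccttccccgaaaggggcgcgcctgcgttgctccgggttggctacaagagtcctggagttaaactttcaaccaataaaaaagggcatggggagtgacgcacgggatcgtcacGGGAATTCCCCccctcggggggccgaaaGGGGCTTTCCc
Nfkbia, GRCm38.p6 chr12:55492648-55492897, minus strand: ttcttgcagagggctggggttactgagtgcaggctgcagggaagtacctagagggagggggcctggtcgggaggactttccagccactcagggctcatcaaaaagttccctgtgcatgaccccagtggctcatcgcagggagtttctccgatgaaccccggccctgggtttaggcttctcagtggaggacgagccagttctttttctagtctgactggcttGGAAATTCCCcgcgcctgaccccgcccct
Nfkbie, GRCm38.p6 chr17:45555450-45555699, plus strand: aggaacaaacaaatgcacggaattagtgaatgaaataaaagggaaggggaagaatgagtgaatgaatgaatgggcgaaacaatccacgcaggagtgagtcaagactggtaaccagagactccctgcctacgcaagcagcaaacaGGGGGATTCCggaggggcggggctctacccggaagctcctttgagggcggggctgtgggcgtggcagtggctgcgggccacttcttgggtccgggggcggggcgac
Counted from the start, the printed matches begin at -125 and -12 in Tnfaip3, at -39, -38 and -11 in Nfkb2, at -29 in Nfkbia and at -106 in Nfkbie. The matches at -39 and -38 in Nfkb2 overlap. Of the genes with a match before the start, Tnfaip3 and Nfkb2 were called, Nfkbia was measured and not called, and Nfkbie was not measured. A match is a description of these letters and no measurement of binding.

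Tnfaip3 encodes A20, an enzyme that edits ubiquitin chains and shuts off signalling from cytokine receptors to NF-kappaB. Its probe lies at mm9 chr10:18720994-18721053. On array 1 its normalised log2 signal was 11.12 for Lgr6-high and 7.80 for Lgr5-high cells, and on array 2 it was 11.29 and 8.43. Both Lgr6-high values lay above both Lgr5-high values. The ratio was 3.32 on array 1 and 2.86 on array 2, with a mean of 3.09 ± 0.33 (SD, n = 2 arrays), or 8.51-fold. Only 0.274% of measured genes had a higher mean ratio. The same direction stands in the uncorrected signals within each dye, though its size differs between the dyes and the arrays are not scaled to each other there. In Cy3 the spot read 7240 for Lgr6-high cells on array 2 and 429 for Lgr5-high cells on array 1, over local backgrounds of 52 and 53. In Cy5 it read 944 for Lgr6-high cells on array 1 and 263 for Lgr5-high cells on array 2, over 135 and 131.

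Birc3, also known as cIAP2, is a ubiquitin ligase of the TNF receptor complex and a classical target of NF-kappaB. Its brighter probe at mm9 chr9:7848873-7848932 had a log2 signal of 7.24 and 8.12 in Lgr6-high cells on arrays 1 and 2, and of 6.62 and 6.97 in Lgr5-high cells. The populations did not overlap, but the Lgr5-high signal was not well above background on array 2. The ratio was 0.61 and 1.15 on the arrays, 0.88 ± 0.38 on average (1.84-fold), and the gene was not called. It was the closest member below the 2-fold limit. A second Birc3 probe, at mm9 chr9:7856162-7856221, never rose above background and had a ratio of 0.14 ± 0.30.

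Bcl3 encodes an unusual IkappaB protein that works in the nucleus, where it pairs with p50 and p52 homodimers and can activate transcription. Its log2 signal was 10.21 and 10.44 in Lgr6-high cells on arrays 1 and 2, and 7.37 and 7.42 in Lgr5-high cells. The ratio of 2.84 on array 1 and 3.02 on array 2 gave 2.93 ± 0.13, or 7.60-fold, the smallest SD of the 6 called members. Only 0.436% of measured genes had a higher mean ratio. The Bcl3 probe, at mm9 chr7:20393862-20393921, lies 202 kb from the Relb probe on the same chromosome.

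Nfkbiz encodes IkappaB-zeta, a nuclear cofactor of NF-kappaB that is induced in epithelium by interleukin-1 and interleukin-17. Its probe at mm9 chr16:55812091-55812150 had a log2 signal of 8.74 and 10.06 in Lgr6-high cells on arrays 1 and 2, and of 7.08 and 7.44 in Lgr5-high cells. The Lgr6-high values were both above the Lgr5-high ones, although they differed more between arrays than the Lgr5-high values did. The ratio was 1.66 and 2.62, or 2.14 ± 0.67 on average (4.40-fold).

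The cytoplasmic inhibitor Nfkbia, or IkappaB-alpha, is the member most often used as a readout of NF-kappaB activity. It was read by a single probe whose bases are spread over 496 bases of the genome, at mm9 chr12:56590945-56591440, and therefore cross a gap in the alignment. The probe is shown because Nfkbia rests on it alone. Its sequence belongs to the acidic end of the coding region.
Nfkbia probe: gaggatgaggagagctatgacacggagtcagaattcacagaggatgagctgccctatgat
On array 1 the log2 signal was 13.89 for Lgr6-high and 12.64 for Lgr5-high cells, and on array 2 it was 13.72 and 13.68. The Lgr6-high values lay above the Lgr5-high ones, on array 2 by only 0.04. The ratio of 1.25 on array 1 and 0.04 on array 2 gave 0.64 ± 0.86, and Nfkbia was not called. The probe was very bright, with 1.31% of measured genes brighter. Among the brightest 1% of measured genes, 62 in number, the median ratio after loess was 0.64 on array 1 and -1.35 on array 2, and the part of this split in the Nfkbia value was not tested. The scanner software's own dye-normalised ratio of Nfkbia, in log2, was 1.22 on array 1 and 1.08 on array 2. With it Nfkbia was called, at 1.15, whereas with the background model fitted on all spots its mean ratio changed sign, to -0.59.

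Nfkbie, or IkappaB-epsilon, is an inhibitor related to IkappaB-alpha and likewise induced by NF-kappaB. Its probe at mm9 chr17:45700000-45700059 rose well above background in 1 of its 4 readings, that of Lgr6-high cells on array 2, and the gene was not measured. The spot read 166 and 165 in Lgr6-high cells on arrays 1 and 2, over local backgrounds of 132 and 53, and 89.8 and 158 in Lgr5-high cells, over 54.5 and 126. The ratio was 0.42 on array 1 and 0.09 on array 2, or 0.25 ± 0.23. The scanner's ratio was 2.38 and 2.19, with the Lgr5-high signal replaced by a surrogate value on both arrays.

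Rela encodes p65, the subunit that carries the transactivation domain of the common p50-p65 pair. The brighter of its probes, at mm9 chr19:5647632-5647691, had a log2 signal of 10.91 and 11.64 in Lgr6-high cells on arrays 1 and 2, and of 9.55 and 9.65 in Lgr5-high cells. The ratio was 1.36 and 1.99, or 1.67 ± 0.44 (3.19-fold), and Rela was called. A second probe lies 437 bases upstream, at mm9 chr19:5647136-5647195, in the part that codes for the transactivation domain. It is shown because its replicate spots give a measure of the technical spread.
Rela probe with replicate spots: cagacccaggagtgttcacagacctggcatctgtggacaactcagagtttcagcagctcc
It had 10 usable spots on array 1 and 7 on array 2. The ratio ran from 0.37 to 1.18 over the spots of array 1, with a median of 0.64 and an SD of 0.24, and from 0.89 to 1.28 on array 2, with a median of 1.18 and an SD of 0.15. Each of these 17 spots was above 0, and 8 of 10 and 7 of 7 reached 0.5. The probe's mean ratio of 0.89 ± 0.32 was nevertheless below the limit for a call and below that of the brighter Rela probe. On array 2 none of its spots was well above background for the Lgr5-high cells, which carried Cy5 there. In the scanner's ratios the Rela probes were alike, at 2.04 and 2.05.

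**Figure D2:**
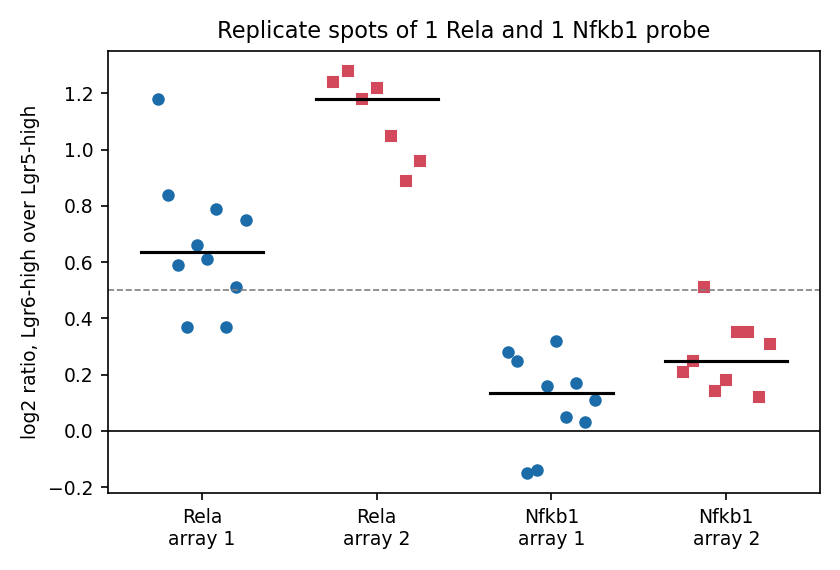
Log2 ratio of Lgr6-high over Lgr5-high cells for each usable replicate spot of 1 Rela and 1 Nfkb1 probe on each array, with the median as a black bar and a dashed line at 0.5. The Rela spots lie between 0.37 and 1.28, and the Nfkb1 spots, close to background, between -0.15 and 0.51.

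Relb encodes the subunit that pairs with p52 in the alternative pathway. Its probe at mm9 chr7:20191722-20191781 had a log2 signal of 9.42 and 8.84 in Lgr6-high cells on arrays 1 and 2, and of 7.76 and 8.13 in Lgr5-high cells. The ratio was 1.65 and 0.71, or 1.18 ± 0.67 (2.26-fold). Relb was the called member closest to the limit, and from array 2 alone it was not called.

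Nfkb2 encodes p100, which is at once an inhibitor and the precursor of p52. Its probe lies at mm9 chr19:46386146-46386285 and spans 140 bases for its 60, so that it crosses a gap in the alignment. The probe, from the coding region near the carboxyl end of p100, is shown because its deposited position is split.
Nfkb2 probe: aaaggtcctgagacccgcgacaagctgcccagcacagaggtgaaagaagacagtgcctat
The log2 signal was 8.67 and 9.24 in Lgr6-high cells on arrays 1 and 2, and 7.68 and 7.81 in Lgr5-high cells. The ratio was 0.99 and 1.43, or 1.21 ± 0.31 (2.32-fold), which passed the limit on average, although array 1 alone stayed just under it.

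Nfkb1 encodes p105, the precursor of p50. Of its 4 probes 1 passed the filter, at mm9 chr3:135274175-135274234. Its log2 signal was 7.04 and 7.78 in Lgr6-high cells on arrays 1 and 2, and 6.59 and 6.89 in Lgr5-high cells. The ratio of 0.45 and 0.90, or 0.67 ± 0.32, was not called. The other 3 probes had ratios of 0.47 ± 0.67, 0.19 ± 0.11 and 0.00 ± 0.05. The second of these, at mm9 chr3:135247710-135247771, had replicate spots, with medians of 0.14 over 10 spots on array 1 and 0.25 over 9 on array 2. Its detection followed the dye. Lgr5-high cells were well above background in 10 of 10 spots in Cy3 and 0 of 9 in Cy5, and Lgr6-high cells in 9 of 9 spots in Cy3 and 2 of 10 in Cy5. No gene model of mm9 was used here, so the probes are given by position without exon or UTR. The coding parts named for the Nfkbia, Rela and Nfkb2 probes are background and were not computed here.

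**Figure D3:**
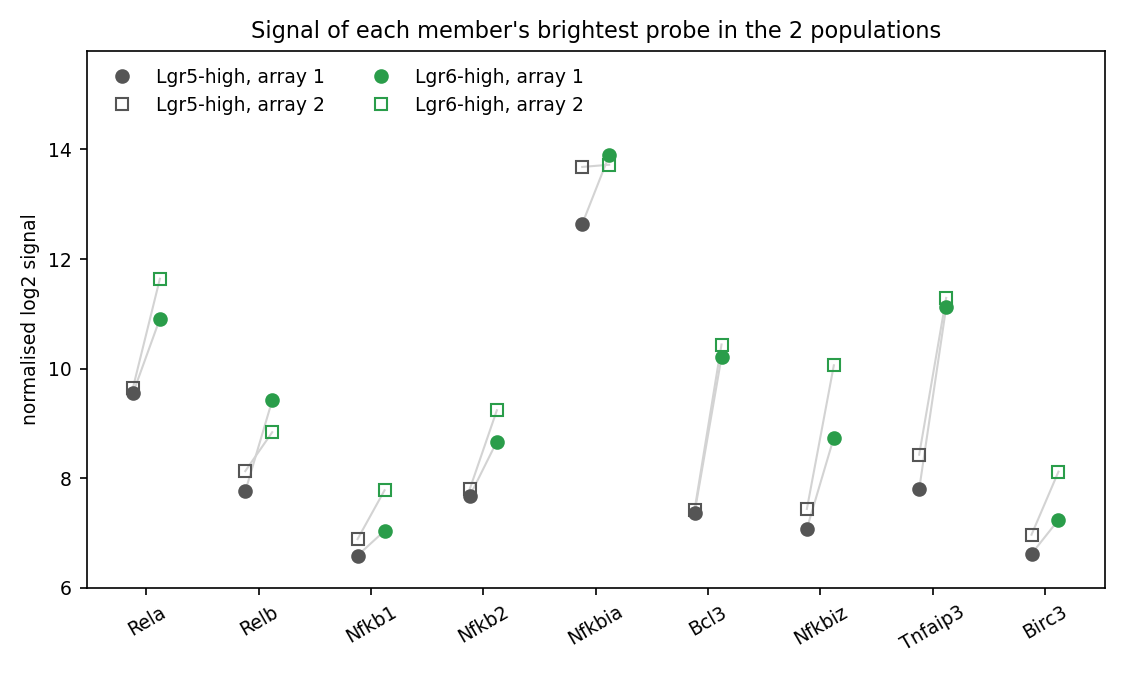
Normalised log2 signal of the brightest measured probe of 9 members in Lgr5-high cells (grey) and Lgr6-high cells (green), with array 1 as filled circles, array 2 as open squares and grey lines joining the populations of an array. The lines of Tnfaip3 and Bcl3 are the steepest and that of Nfkbia on array 2 is flat; heights of different probes are not comparable.

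The size of these ratios depended on how dim and bright spots were treated, while the sign of the mean did not, except for Nfkbia under 1 setting. The scanner's ratios called 9 of 9 measured members, with a median of 2.16, but also 15.5% of all genes, against 7.28% above. Without background subtraction Tnfaip3, Bcl3, Nfkbiz and Rela were called, 4 members against 3.42% of genes, and Nfkb2 and Relb measured 0.87 each. With the background model fitted on all spots it was the same number of members against 2.0% of genes. With median centring in place of loess only Tnfaip3 and Bcl3 were called, against 2.16% of genes. The arrays then spread apart, with Rela at -0.85 on array 1 and 4.36 on array 2. Relb, Nfkb1, Nfkb2, Nfkbia and Birc3 were also negative on array 1, from -1.47 (Nfkbia) to -0.09 (Birc3). The positive means of Rela and these genes under median centring thus came from array 2. Tnfaip3, Bcl3 and Nfkbiz were positive on both arrays. Of all called genes, 451 toward Lgr6-high and 295 toward Lgr5-high cells, 60.5% were on the Lgr6-high side. That share was 50% with the scanner's ratios, 45.1% with the model fitted on all spots and 70.2% with median centring. Tnfaip3 and Bcl3 were called under each of the 13 settings run, Nfkbiz and Rela under 12, and Nfkb2 and Relb under 9. The settings are not all distinct, so these counts are no measure of robustness. The authors' deposited ratios repeat the scanner's. Settings that changed only the filter, the choice of probe or the test left the ratios of Nfkb2 and Relb as reported.

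**Figure D4:**
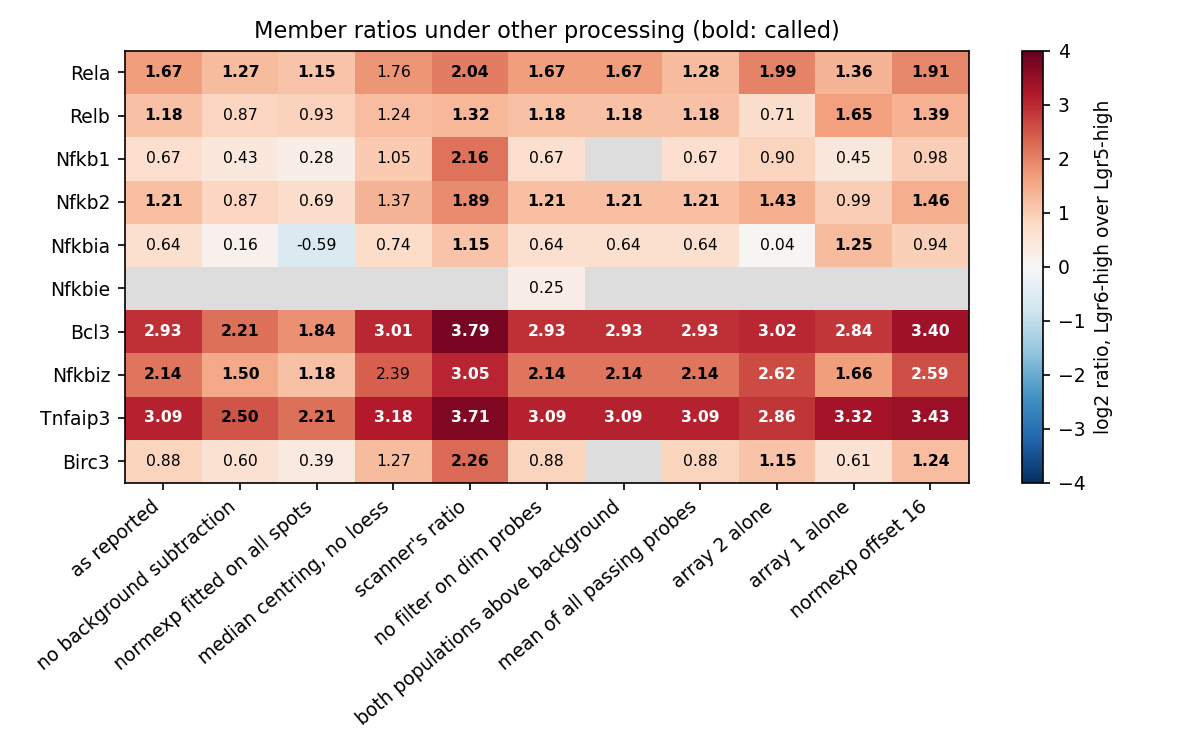
Mean log2 ratio of each member (rows) under 11 of the processing settings (columns), coloured from blue for higher in Lgr5-high to red for higher in Lgr6-high cells, with called values in bold and unmeasured ones in plain grey. Tnfaip3 and Bcl3 are bold in every column shown, and Nfkbia is the 1 member with a negative value, -0.59.

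The rest of the pathway was read from lists of its components. The 7 lists were ligands, receptors, adaptors, kinases, further subunits, further negative regulators and target genes. They held 92 genes on the array, of which 37 were measured, with a median ratio of 0.46. Of the 37 measured genes, 7 were called toward Lgr6-high cells and 0 toward Lgr5-high cells. Across all measured genes these shares were 7.28% and 4.76%, which also apply beside the counts per list here and in the next paragraph. The lists were chosen with earlier results of these data known, so such contrasts are no test. The medians of these lists rest on the genes that passed the filter on dim probes. Without it the list medians were 0.07 for receptors, 0.16 for adaptors, 0.23 for further negative regulators and 0.03 for further subunits. With it they were 0.42, 0.29, 0.53 and 0.98. The 0.98 is the value of 1 gene, Nfkbib, the only measured gene of its list. Rel, a subunit on that list, was above background in no reading. None of the 8 ligand genes, Tnf and the interleukin-1 genes among them, and none of the 8 kinase genes was measured. Of 5 measured receptors 0 were called, with Tnfrsf12a, the TWEAK receptor, at 0.77 ± 0.32 and Tnfrsf1a, the main TNF receptor, at 0.20 ± 0.25. Of 16 measured adaptors 2 were called, the scaffold Card10 (1.51 ± 0.04) and Myd88 (1.16 ± 0.10), the adaptor of Toll-like and interleukin-1 receptors. The kinase-binding Tab1 (-0.88 ± 0.57) and Bcl10 (0.71 ± 0.38) were not. Nfkbib, or IkappaB-beta, an inhibitor that is no member here, was at 0.98 ± 0.02 and just missed the limit.

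Among 7 further negative regulators measured, Tnip1, which binds A20 and helps it act on its targets, was called at 2.04 ± 0.21, as was Pdlim2, a ligase that acts on nuclear p65, at 1.05 ± 0.07. Tax1bp1, another partner of A20, was split between 0.10 and 1.17 on arrays 1 and 2 and was not called, and Rnf11 was at 0.53 ± 0.23. Of 8 measured target genes 3 were called, the stress gene Ier3 (1.67 ± 0.31), the adhesion molecule Icam1 (1.49 ± 0.32) and the transcription factor Irf1 (1.11 ± 0.25). Gadd45b (0.97 ± 0.64) and the mitochondrial dismutase Sod2 (0.57 ± 0.06) were not called, and the chemokine gene Ccl2 was on the Lgr5-high side at -0.52 ± 0.01. The target list had a median of 0.95, and of 0.12 without the filter on dim probes. Nos2 and Vcam1 were above background in neither population.

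Immediate early and stress genes, which cells also switch on during tissue dissociation, lay on the same side as the members. Of 17 measured genes of this list 14 were called toward Lgr6-high cells and 0 toward Lgr5-high cells. Across all measured genes 7.28% and 4.76% were called in these directions. This list, too, was chosen with earlier results of these data known, so the contrast is no test. The list had a median of 1.96, and its part in the ratios of the NF-kappaB genes was not tested. The largest ratios were those of the phosphatase Dusp1 (3.09 ± 0.40), the transcription factor Atf3 (2.82 ± 0.86) and the nuclear receptor Nr4a1 (2.82 ± 0.93). Zfp36, which destabilises cytokine mRNAs, was at 2.58 ± 0.94, Btg2 at 2.63 ± 0.07 and Jund at 2.32 ± 0.80. The heat shock genes Hspa1a (0.56 ± 1.73) and Hspa1b (0.49 ± 1.14) were above 0 on array 1 and below 0 on array 2. The summed normalised signal of the whole list on a linear scale was 169000 and 110000 in Lgr6-high and 35800 and 73100 in Lgr5-high cells on arrays 1 and 2. A linear sum weighs bright genes most, and Hspa1a, split between the arrays, was the brightest measured gene of the list.

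**Figure D5:**
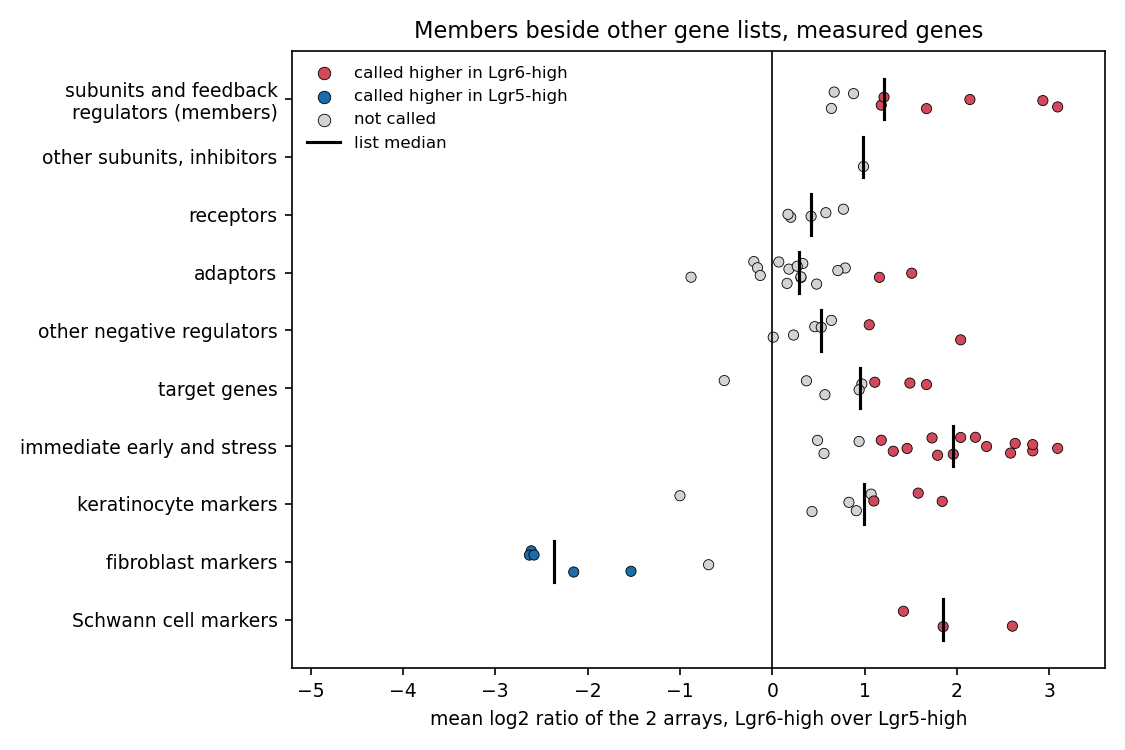
Mean log2 ratio of the 2 arrays for each measured gene of the members and of 9 other lists, in red where called higher in Lgr6-high, in blue where called higher in Lgr5-high and in grey where not called, with list medians as black bars. The members (median 1.21) lie between the adaptors (0.29) and the immediate early and stress genes (1.96), and fibroblast markers lie on the other side.

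Markers of cell types were read for the labelled tissue and for other sources of NF-kappaB transcripts. All 8 keratinocyte markers, Krt5, Krt14 and Trp63 among them, were measured in both populations. They had a median of 0.99, and 3 of 8 were called higher in Lgr6-high cells, against 7.28% of all measured genes. The called ones were Cdh1 (1.84 ± 0.48), Itga6 (1.58 ± 0.36) and Itgb4 (1.1 ± 0.13). The bright keratins were split between arrays, with Krt5 at 0.83 ± 1.39 and Krt17 at -1.0 ± 1.83. Leukocytes express many NF-kappaB genes at high levels, and 0 of the 14 leukocyte markers on the array were measured. Cd3e, Cd74 and Fcer1g were above background in some reading, 3 genes of the list in Lgr5-high cells on array 1 and 1 in Lgr6-high cells on array 2, and 0 in the other readings. Ptprc, which defines leukocytes, was never above background. The list's summed signal was 1100 and 998 in Lgr6-high and 1010 and 1030 in Lgr5-high cells. Each list sum in this paragraph includes genes at background and the constant added in background correction. Of the 14 leukocyte genes 11 were never above background. The leukocyte sums therefore lie mostly at the floor of the signal and cannot compare the leukocyte RNA of the populations. Of fibroblast markers 5 of 6 measured, Col1a2 first (-2.63 ± 0.22), were called higher in Lgr5-high cells, against 4.76% of all measured genes. Only Fbln1 (-1.53 ± 0.04) was above background in both populations on both arrays. The other measured fibroblast genes passed the filter through the Lgr5-high channel only, which favours that sign. The fibroblast median was -2.36, and -1.53 without the filter. Of endothelial markers 2 of 2 measured, Ramp2 first (-2.42 ± 0.33), were also called higher in Lgr5-high cells. Both passed the filter on dim probes through the Lgr5-high channel only, which favours that sign. The other 7 of the 9 endothelial genes on the array were never above background. The endothelial median was -1.78, and 0 without the filter. The ratios of the called fibroblast and endothelial markers have the opposite sign to the members'. The part of fibroblast and endothelial RNA in the members' ratios was not tested. The summed fibroblast signal was 1150 and 690 in Lgr6-high and 3880 and 2450 in Lgr5-high cells. In Lgr6-high cells 1 and 5 of the 9 fibroblast genes on the array were above background on arrays 1 and 2, so these sums are partly floor. Of 7 Schwann cell markers 3 were measured and all 3 were called higher in Lgr6-high cells, Pmp22 first (2.6 ± 0.17). The defining Sox10 was not measured. The Schwann cell median was 1.85, and 0.05 without the filter. The Schwann cell sum was 2150 and 2610 against 696 and 821, and its part in the members' ratios was not tested. Dct (-1.58 ± 0.15) was the 1 melanocyte marker measured.

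Signal over background limited the dim members. Cy3 was well above background at 31.6% and 33.3% of the 43379 probe spots on arrays 1 and 2, and Cy5 at 15.3% and 16.2%. The 2 arrays' number limits the precision of each value given here.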

How the data were processed

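The authors deposited 1 Agilent Feature Extraction table per array, with linear intensity values of spots and local background, 0 or 1 marks, surrogate values, and log10 ratios of Cy5 over Cy3. Extraction was done with version 10.5.1.1 per the file headers (9.5.3 per the submitters' processing notes), and probe positions are on mm9. The authors' deposited value table of log10 ratios equalled the scanner's within 5e-06 on both arrays once array 2's sign was turned, with column medians of 0, so it reads Lgr6-high over Lgr5-high.

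Other steps were computed here with limma 3.58.1 in R 4.3.3. Mean signals were corrected with normexp (offset 50, fitted on spots without an outlier mark) and loess-normalised, with control spots at weight 0. Marked spots were left out, and the rest averaged per probe. Per population signals were scaled between arrays (Aquantile). A probe with several spots was above background if at least 0.5 of them were. Probes were named by accession (25097), symbol (6333) or synonym (1640) in a RefSeq table of GRCm38.p6. The others were named as in the file (1696) or had no gene name beyond an identifier (6408). Such an identifier, where present, counts as a gene in the counts over all genes. Alternatives changed 1 choice at a time, except the scanner's ratio and the authors' value table, which replace background correction, surrogate values and dye normalisation together. Named genes were the members and, per list, the called genes with the largest ratios (up to 6, or 3 for markers) and the 2 brightest not called; Ccl2, Tax1bp1's arrays and genes at background were named after their values were seen. Members and lists were chosen with earlier results of these data known. The pipeline was tested on simulated data.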

Additional observations from a re-analysis of the deposited data

How the results depend on the processing

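The 13 settings were the one reported, 11 alternatives fixed with the lists and an offset of 16 chosen after seeing the data. Genes called toward Lgr6-high and toward Lgr5-high cells numbered 212 and 204 without background subtraction, 124 and 151 with normexp fitted on all spots, 134 and 57 with median centring, 958 and 958 with the scanner's ratio or the authors' value table, and 685 and 427 with the offset of 16. The members' median was 0.87, 0.93, 1.37, 2.16 and 1.46 in the same order, and 1.67 with both populations above background. Members called were 2 with median centring, against 2.16% of genes, and 7 with the offset of 16, against 11.1%. Leaving out array 1 or array 2 gave 611 and 471 or 434 and 315 genes, 6 members each, and member medians of 1.43 and 1.36. Array 2 alone called Birc3 (1.15) and lost Relb (0.71), and array 1 alone called Nfkbia (1.25) and lost Nfkb2 (0.99). Limma's lmFit and eBayes, at a 0.05 limit on the Benjamini-Hochberg adjusted p and 2-fold, called 6 members. Of all genes it called 458 (7.39%) toward Lgr6-high and 302 toward Lgr5-high cells. The p covers only the spread between hybridisations. Immediate early genes called ranged from 5 with median centring to 15, and were 8 with normexp fitted on all spots. Of all genes, 2.16% were called toward Lgr6-high cells with median centring and 2.0% with normexp fitted on all spots. Each ratio is itself a pair within an array, and no further replicate block could be fitted. Dim signals, above all in Cy5, limit Nfkb1, Nfkbie and Birc3.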
